A study of Mus musculus with 6 samples.

Results

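Glycolysis and its exit at pyruvate were examined through the chromatin accessibility of 32 genes, from the glucose transporters to the kinases that close pyruvate dehydrogenase, together with Hif1a. A peak belonged to a gene when it overlapped the gene body, or lay within 50 kb with that gene as the nearest protein-coding gene, and 341 of the 182166 consensus peaks met this rule. ATAC-seq, in which the Tn5 transposase cuts open DNA, was run on marrow cells of untreated C57BL/6 mice after flow sorting for granulocyte-monocyte progenitors. In GFI1-KD mice human GFI1, at 10-20%, stood in place of mouse Gfi1, and in GFI1-KI mice human GFI1 replaced the mouse gene, so both genotypes carried the human form. Each genotype had 3 libraries, called KD1 to KD3 and KI1 to KI3, and the labels do not say whether they came from separate animals, so a p-value here reflects library-to-library spread, some of which may be technical.

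Glycolysis splits glucose into pyruvate in the cytosol, with hexokinase and phosphofructokinase as the main controlled steps. Pyruvate then either becomes lactate through lactate dehydrogenase or enters mitochondria through pyruvate dehydrogenase, which the PDK kinases switch off. HIF-1α, the product of Hif1a, raises transcription of many of these genes when oxygen is low, and blood stem and progenitor cells are known for shifts between glycolysis and respiration as they differentiate. GFI1 is a zinc-finger transcriptional repressor that acts in the choice between neutrophil and monocyte fates.

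Values are normalized reads per peak, as deposited, and changes are log2 fold changes of GFI1-KD over GFI1-KI on the log2(value + 1) scale with their standard error (SE). A peak was tested when its mean over the 6 libraries was at least 10, and called when the adjusted p of limma's moderated test over all 170733 tested peaks was under 0.05. Reads in peaks numbered 16022763 to 19857646 per GFI1-KD library and 19408373 to 27741446 per GFI1-KI library. KI2 and KI3 were the deepest libraries, and without them 7245 and 6996 peaks were called in all, against 17872 with all libraries. Start peaks of 13 progenitor marker genes had a median level of 254.8 normalized reads, against 33.3 for erythroid, 102.1 for megakaryocyte, 61.6 for B cell, 40.9 for T and NK cell and 33.3 for mature macrophage markers. Of 9 listed erythroid genes Alas2, Car1 and Hba-a1 had no assigned peak, and of 14 listed progenitor genes Fcgr3 had none. Summed signal at the 6 erythroid marker genes with peaks was lower in GFI1-KD libraries (3526, 3259 and 3533) than in GFI1-KI libraries (3963, 4362 and 4069). Megakaryocyte markers gave 2674, 2206 and 2483 in GFI1-KD libraries and 2962, 3319 and 3034 in GFI1-KI libraries. Of the tested erythroid peaks 5 of 38 were called lower and 0 higher (0 at an unadjusted p under 0.05; 0 higher by edgeR and by DESeq2), and of the megakaryocyte peaks 6 of 25 were lower and 0 higher (1 at an unadjusted p under 0.05; 1 by edgeR, 0 by DESeq2). Progenitor markers had 10 higher and 8 lower of 192, B cell markers 2 and 3 of 51, macrophage markers 1 and 2 of 55, and T and NK cell markers 0 and 0 of 44 (0 and 3 at an unadjusted p under 0.05; 0 by edgeR and by DESeq2). Across all tested peaks 4.99% were called higher and 5.48% lower. The shares called lower were 13.2% for erythroid and 24% for megakaryocyte markers. Progenitor markers stood at 5.21% higher and 4.17% lower, B cell markers at 3.92% and 5.88%, and macrophage markers at 1.82% and 3.64%. In such bulk samples fewer cells of a type and less open chromatin per cell cannot be told apart, and the part of these markers in the results that follow was not tested.

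The 200 bases before the gene start are shown for the 3 genes whose start lay inside a changed peak, Pdk1, Hk1 and Pfkm, and for Slc2a1 and Hk2, whose starts were not called although peaks elsewhere in the locus were. Sequences are from RefSeq on GRCm38.p6, the build also called mm10, and run 5′ to 3′ on the gene's strand. Capitals mark ACGTG or GCGTG on either strand (CACGT or CACGC on the other), the core that hypoxia-inducible factors recognise.
Pdk1, chr2:71873024-71873223, plus strand: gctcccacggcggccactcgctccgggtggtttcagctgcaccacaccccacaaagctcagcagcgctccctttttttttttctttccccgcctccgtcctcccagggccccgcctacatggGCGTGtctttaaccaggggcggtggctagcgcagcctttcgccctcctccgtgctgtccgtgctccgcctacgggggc
Hk1, chr10:62340422-62340621, minus strand, the downstream of its listed starts: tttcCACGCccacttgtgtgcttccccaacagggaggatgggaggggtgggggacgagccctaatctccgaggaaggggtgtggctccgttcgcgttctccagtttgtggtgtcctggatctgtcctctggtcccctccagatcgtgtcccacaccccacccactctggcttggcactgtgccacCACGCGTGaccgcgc
Pfkm, chr15:98111860-98112059, plus strand, an internal listed start: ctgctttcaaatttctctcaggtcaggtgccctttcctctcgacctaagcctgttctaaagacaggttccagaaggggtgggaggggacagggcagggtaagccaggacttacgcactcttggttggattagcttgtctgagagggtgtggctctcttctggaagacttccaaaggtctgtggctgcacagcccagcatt
Slc2a1, chr4:119108545-119108744, plus strand: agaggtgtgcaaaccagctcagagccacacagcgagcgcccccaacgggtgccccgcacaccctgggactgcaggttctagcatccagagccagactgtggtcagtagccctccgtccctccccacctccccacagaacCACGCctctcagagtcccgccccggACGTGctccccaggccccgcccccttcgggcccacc
Hk2, chr6:82774455-82774654, minus strand: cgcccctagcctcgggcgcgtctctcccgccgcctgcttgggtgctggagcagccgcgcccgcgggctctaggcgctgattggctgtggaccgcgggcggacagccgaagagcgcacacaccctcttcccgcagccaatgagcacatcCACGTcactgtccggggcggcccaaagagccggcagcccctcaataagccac
The printed Hk1 stretch held 3 core matches, overlapping ones counted, Slc2a1 2, Pdk1 and Hk2 1 each, and Pfkm 0. Promoter windows of 250 bases before to 50 after a listed start were available for 31 of the 32 genes, with 50 starts, and not for Slc2a3. ACGTG stood in 23 of these 50 windows (46%), against 19.6% of all 32851 promoter windows. GCGTG stood in 26 of the 50 (52%), against 32.4% of all windows. CACGTG, the E-box, which contains ACGTG, stood in 7 of the 50 (14%), against 7.15%. AATC, the core of the GFI1 site, stood in 25 of the 50 (50%), against 73.1%. The windows were not matched on base composition, and a match is a run of letters, not a bound site.

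Accessibility at these genes changed in both directions. Of the 324 peaks that passed the level filter, 23 were higher in GFI1-KD, 11 were lower and 290 were not called. Across all tested peaks 10.5% were called, 4.99% higher and 5.48% lower, and the members stood at 10.5%, 7.10% and 3.40%, so the total was that of the background while the split leaned upward. Of the 23 higher peaks Pfkfb3 held 6 and Hk2 4, so 2 loci weighed heavily in that lean. The members' counts moved with the libraries. Without KD1 they were 11 higher and 14 lower, without KD3 8 and 9 and without KI3 4 and 4. Without KD2 they were 14 and 6, without KI1 25 and 11 and without KI2 8 and 5. With all libraries 67.6% of called member peaks were higher, against 47.7% of all called peaks. The 2 shares came closer without KD1 (44% against 40.4%), KD3 (47.1% against 41.8%), KI2 (61.5% against 59.4%) or KI3 (50% against 51.5%). They stayed further apart without KD2 (70% against 53.8%) or KI1 (69.4% against 54%). The median log2 fold change over the 324 peaks was -0.01, against -0.05 over all tested peaks, and with other scalings of the libraries both moved upward, to 0.03 and -0.01 with median-of-ratios or equal-total scaling. The genotypes did not overlap in 26.2% of the 324 peaks, against 28.8% of all tested peaks. Called peaks were seen at 15 of the 32 genes, of which 5 had higher peaks only, 3 had lower peaks only and 7 had both. Among 50 other genes around the pathway, 9 had higher only, 7 lower only, 5 both and 29 none. The share over all genes was not computed, and it depends on how many peaks a gene has. The member genes without a call held 91 tested peaks, with 0 called by definition (14 at an unadjusted p under 0.05, 3 called by edgeR and 0 by DESeq2). Of all 170733 tested peaks 43463 had an unadjusted p under 0.05 in limma, and of the 324 member peaks 74 did. Of the 34 called member peaks, 7 were called without each library in turn and under every other scaling, pseudocount, block, variance and count-based alternative that tested them. The share of all called peaks that held in this way was not computed, so 7 of 34 cannot be read as a trait of these genes.

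**Figure D1:**
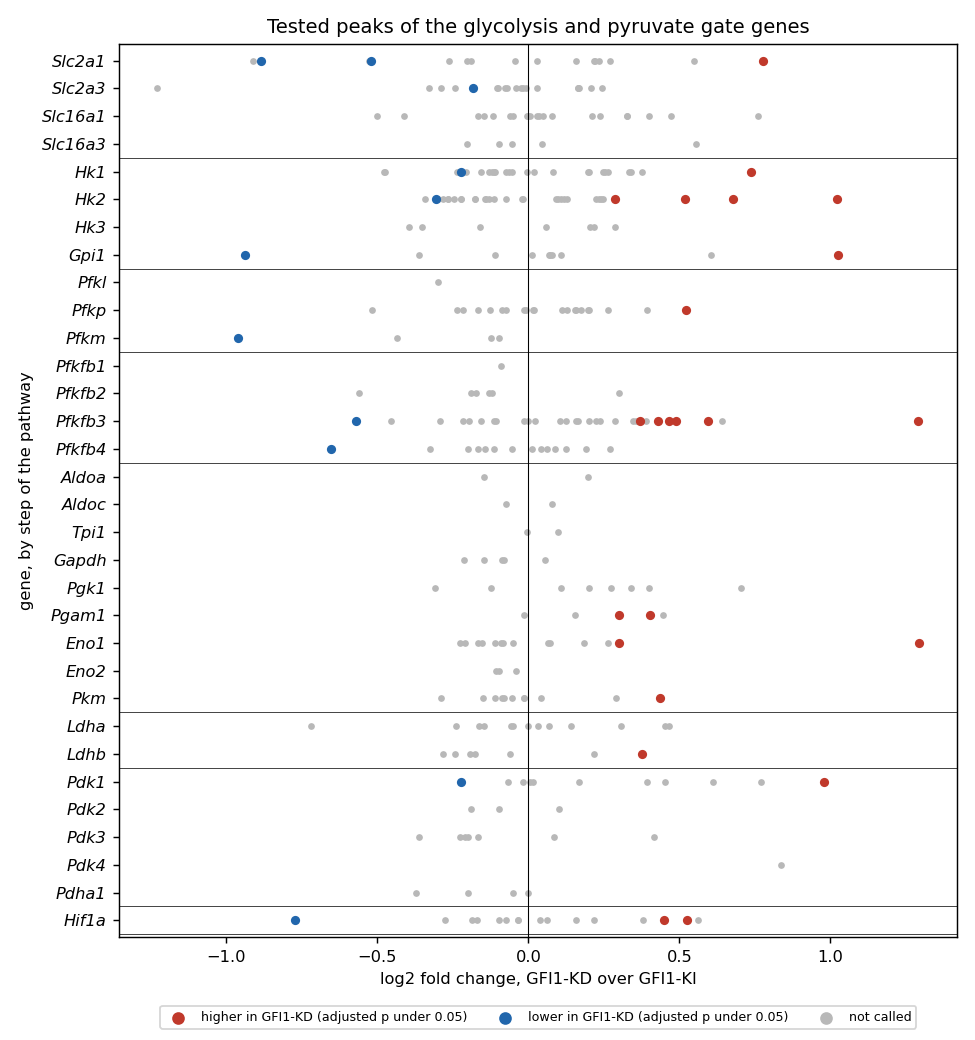
Log2 fold change of GFI1-KD over GFI1-KI (x axis) for each of the 324 tested peaks, by gene (rows, in the order of the pathway; lines part the steps). Red points are the 23 called higher and blue points the 11 called lower. Pfkfb3 carries 6 red points, and the 9 genes from Aldoa to Pkm carry no blue one.

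Gene starts and the rest of the loci were counted apart. Of the 58 tested start peaks, those within 1 kb of a listed start of the gene, 2 were called higher and 3 lower, against 9.21% called (2.01% higher, 7.21% lower) of all tested peaks within 1 kb of a listed start. Their median level was 338 normalized reads and their median log2 fold change -0.08, against -0.09 for all such peaks. Away from starts, 21 of 266 tested peaks were higher (7.89%) and 8 lower (3.01%), against 5.5% and 5.18% of all other tested peaks (10.7% called). Within gene bodies away from starts 15 of 158 were higher and 3 lower, and the run of 5 peaks inside Pfkfb3 was among those 15. Beyond the bodies, start peaks left out, 6 were higher and 5 lower (7 and 5 of 111 with start peaks counted). The shares over all peaks in and beyond gene bodies were not computed, so these splits have no background to be read against. Among the 30 genes with a start peak, the strongest start peak had a negative log2 fold change in 27 (23 with equal totals or median-of-ratios scaling), with a range of -0.22 to 0.38, but passed the test in only 3: Hk1 and Pdk1, lower, and Ldhb, higher. Negative changes were common at starts in general. Positive ones made up 29.3% of the 58 member start peaks and 25.9% of 85 start peaks at other genes around the pathway. The share over all gene starts was not computed. Of the 30 strongest start peaks 13 did not overlap between genotypes, and 31.0% of the 58 member start peaks did not. The share was 28.8% of all tested peaks and 34.3% of those with a mean of at least 50. The strongest start peaks had a median level of 780, against 44.7 for all tested peaks, so the sets are unlike.

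Of the 61 tested transporter peaks 1 was called higher and 3 lower, 6.56% against 10.5% of all tested peaks. Slc2a1, which encodes GLUT1, the basal glucose importer, held 3 of these 4 calls. A peak within the gene on chromosome 4 from 119125558 to 119126288, 17.2 kb from the start, held 618, 475 and 457 normalized reads in KD1 to KD3, against 345, 280.5 and 275 in KI1 to KI3. The GFI1-KD libraries all lay above the GFI1-KI libraries, with KD1 the highest. The change was 0.78 ± 0.11 (SE, limma adjusted p = 0.000212), and over the alternatives the adjusted p ran from 3.01e-08 to 0.00183. In the other direction, a peak 31.1 kb outside the gene on its upstream side, from 119077023 to 119077642, held 61.0, 35.8 and 45.5 in KD1 to KD3 and 60.8, 113.9 and 92.9 in KI1 to KI3. KD1 and KI1 were level there, and the change of -0.88 ± 0.22 (limma adjusted p = 0.0124) was not called without KD2 (0.0775), KI2 (0.112) or KI3 (0.0613). Another, 39.5 kb outside on that side, changed by -0.52 ± 0.15 (limma adjusted p = 0.0271; 0.113, 0.167 and 0.0775 without KD2, KI2 and KI3, and 0.0858 by DESeq2). The Slc2a1 start peak held 1174, 968 and 1083 in KD1 to KD3 against 1142, 1224 and 1305 in KI1 to KI3 and was not called (limma adjusted p = 0.0976). Over the whole locus the internal rise and the upstream falls stood beside a summed change of 0.00 ± 0.06.

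Slc2a3, encoding the high-affinity transporter GLUT3, had 19 tested peaks, of which 1 was called. That peak, on chromosome 6 from 122810635 to 122811608 and 8.27 kb outside the gene, with Foxj2 8.58 kb away, was the strongest of all member peaks, with 1748, 1549 and 1680 normalized reads in KD1 to KD3 and 1865, 1908 and 1869 in KI1 to KI3. All GFI1-KD libraries were below all GFI1-KI libraries, by a small step of -0.18 ± 0.05 (limma adjusted p = 0.0354). It was not called without KD2 (0.0733), KD3 (0.0864), KI1 (0.0506), KI2 (0.17) or KI3 (0.141), with median-of-ratios scaling (0.0941), by edgeR (0.116) or by DESeq2 (0.242). The lactate carriers gave no call: Slc16a1, encoding MCT1, had 0 of 21 tested peaks called and Slc16a3, encoding the exporter MCT4, 0 of 5 (limma; 2 and 1 at an unadjusted p under 0.05; 0 by edgeR and DESeq2). The Slc16a1 start peak held 1321, 1375 and 1424 in KD1 to KD3 and 1378, 1433 and 1299 in KI1 to KI3, with the genotypes interleaved.

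Hexokinases trap glucose in the cell as glucose 6-phosphate. Hk2, the inducible form, had the most peaks of any member, 31 tested, with 4 called higher and 1 lower. A weak peak in the gene body on chromosome 6 from 82753042 to 82753594, 21.1 kb from the start, held 100.6, 99.97 and 75.4 normalized reads in KD1 to KD3 against 47.3, 49.96 and 37.0 in KI1 to KI3. The genotypes were far apart, and the change of 1.02 ± 0.18 (limma adjusted p = 0.00118) was called under every alternative run. Nearer the start, at 10.2 kb, the strong peak from 82763890 to 82764550 went the other way, with 904, 877 and 910.3 in KD1 to KD3 and 1121, 1115 and 1093 in KI1 to KI3. Its replicates were tight, so the small difference of -0.31 ± 0.06 (limma adjusted p = 0.00327) was also called under every alternative. A peak 7.70 kb from the start rose by 0.68 ± 0.17 (limma adjusted p = 0.0152; 0.104 without KD3, 0.0718 without KI3). Peaks 5.98 kb and 30.5 kb outside the gene, on its upstream side, rose by 0.29 and 0.52 on the log2 scale, and each lost its call without KD2 (0.134 and 0.122), KD3 (0.139 and 0.0916), KI2 (0.157 and 0.1) or KI3 (0.165 and 0.229). The Hk2 start peak, at 1049.7, 954 and 1069.97 in KD1 to KD3 and 1106, 1096 and 1164 in KI1 to KI3, was not called (limma adjusted p = 0.208).

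Hk1, the housekeeping hexokinase, had 25 tested peaks and its calls sat side by side at the downstream of its listed starts, on chromosome 10. The strong peak over that start, from 62340056 to 62340727, held 1055, 1042 and 1027 normalized reads in KD1 to KD3 and 1206, 1224 and 1214 in KI1 to KI3. The libraries of each genotype were nearly equal and the genotypes did not overlap, for a change of -0.22 ± 0.06 (limma adjusted p = 0.0194). The call was lost without KD3 (0.0783), KI2 (0.113) or KI3 (0.109), with median-of-ratios scaling (0.0607), by edgeR (0.0575) and by DESeq2 (0.136). The adjoining peak from 62339842 to 62340039 moved the opposite way, with 47.1, 33.3 and 34.4 in KD1 to KD3 and 19.1, 25.4 and 22.7 in KI1 to KI3. Its change was 0.74 ± 0.23 (limma adjusted p = 0.0462), lost without any 1 of the 6 libraries (0.0618 to 0.166), with no filter (0.0514), with a replicate block (0.0587) and by DESeq2 (0.133). Hk3, a hexokinase prominent in myeloid cells, had 0 of 7 tested peaks called by limma and by DESeq2 and 1 by edgeR (1 at an unadjusted p under 0.05). Its start peak held 518, 509.7 and 514 in KD1 to KD3 and 632, 552 and 544 in KI1 to KI3, without overlap but with KI1 apart (limma adjusted p = 0.233).

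Gpi1, the isomerase that makes fructose 6-phosphate, paired a loss and a gain inside the gene on chromosome 7. From 34227879 to 34228065, 2.36 kb from the start, GFI1-KD libraries held 26.7, 27.2 and 22.2 normalized reads and GFI1-KI libraries 55.2, 42.9 and 50.6. The genotypes did not overlap, at -0.94 ± 0.21 (limma adjusted p = 0.00653), and every alternative that tested it called it. With a filter at a mean of 50 this peak was not tested. From 34213406 to 34213574 the values were 78.1, 67.9 and 35.5 in KD1 to KD3 and 30.4, 29.8 and 23.4 in KI1 to KI3, a change of 1.02 ± 0.25 (limma adjusted p = 0.0104). KD3 lay close to the GFI1-KI libraries, and the call was lost without KD1 (0.0524), KD2 (0.0642) or KI3 (0.0563).

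Among the phosphofructokinases, which commit sugar to glycolysis, calls were few. Pfkp, the platelet form, had 1 of 21 tested peaks called, within the gene on chromosome 13 from 6636573 to 6636890, with 205, 218 and 173 normalized reads in KD1 to KD3 and 166, 132 and 119 in KI1 to KI3. It rose by 0.52 ± 0.14 (limma adjusted p = 0.0196), and not without KD2 (0.091), KI2 (0.0905) or KI3 (0.133). Pfkm, the muscle form, was lower at the internal listed start shown above, on chromosome 15 from 98111903 to 98112121, with 25.7, 16.0 and 28.8 in KD1 to KD3 and 42.8, 44.7 and 49.1 in KI1 to KI3. The change was -0.96 ± 0.24 (limma adjusted p = 0.0114; 0.0583 and 0.0695 without KD2 and KI3, 0.0602 by DESeq2). The upstream Pfkm start, far more open at 827, 769 and 779 in KD1 to KD3 against 875, 827 and 836 in KI1 to KI3, was not called (limma adjusted p = 0.411). That upstream peak also overlapped another gene, so its openness is not that of Pfkm alone. Pfkl, the liver form, had a single weak peak, at 13.9, 9.87 and 17.7 in KD1 to KD3 and 18.0, 16.7 and 15.9 in KI1 to KI3, which was not called.

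The PFKFB enzymes set the level of fructose 2,6-bisphosphate, the strongest activator of phosphofructokinase, and Pfkfb3, the form with the highest kinase activity, had the most called peaks of any member, 6 higher and 1 lower of 29 tested. The smallest p lay 41.4 kb beyond the gene's end, on chromosome 2 from 11429355 to 11430028, with 654, 536 and 616 normalized reads in KD1 to KD3 and 450.4, 466 and 477 in KI1 to KI3. GFI1-KD libraries were all higher, by 0.37 ± 0.09 (limma adjusted p = 0.00893), and the call was just lost without KD3 (0.051). Inside the gene, a run of 5 peaks between 23.6 kb and 41.6 kb from the start rose together, by 0.43 to 1.29 on the log2 scale. The strongest of them, from 11524651 to 11525224, held 616, 431 and 470.1 in KD1 to KD3 and 427, 336 and 315 in KI1 to KI3 (0.49 ± 0.12, limma adjusted p = 0.0125; 0.0631, 0.0677 and 0.0899 without KD1, KI2 and KI3). KD2 was close to KI1 there. All 5 lost their call without KI3 (0.083 to 0.205), and each also without 2 or more other libraries (0.0573 to 0.154). The 1 at 41.6 kb was in addition not called by DESeq2. The peak from 11524342 to 11524516 lay beside the strongest one, and that from 11512176 to 11512497 near that from 11513091 to 11513417. Such neighbours may be parts of 1 open region, so the 5 peaks are not necessarily 5 separate sites. Opposite to them, a peak 12.2 kb outside the gene on its upstream side fell by 0.57 (limma adjusted p = 0.0393), lost without each library other than KD1 (0.0701 to 0.173) and by DESeq2 (0.152).

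Pfkfb4, a relative with a single called peak of 14 tested, had the smallest p among the lower peaks of all members. The peak lay within the gene on chromosome 9 from 109009574 to 109010253, 18.0 kb from the start, and held 284, 232 and 259 normalized reads in KD1 to KD3 against 378, 431 and 409 in KI1 to KI3. All GFI1-KD libraries were below all GFI1-KI libraries, at -0.65 ± 0.10 (limma adjusted p = 0.000391), and the adjusted p stayed between 2.82e-05 and 0.00619 over the alternatives. Pfkfb2 had 0 of 6 and Pfkfb1 0 of 1 tested peaks called (limma; 1 and 0 at an unadjusted p under 0.05; 0 by edgeR and DESeq2). The Pfkfb1 peak also overlapped another gene.

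**Figure D2:**
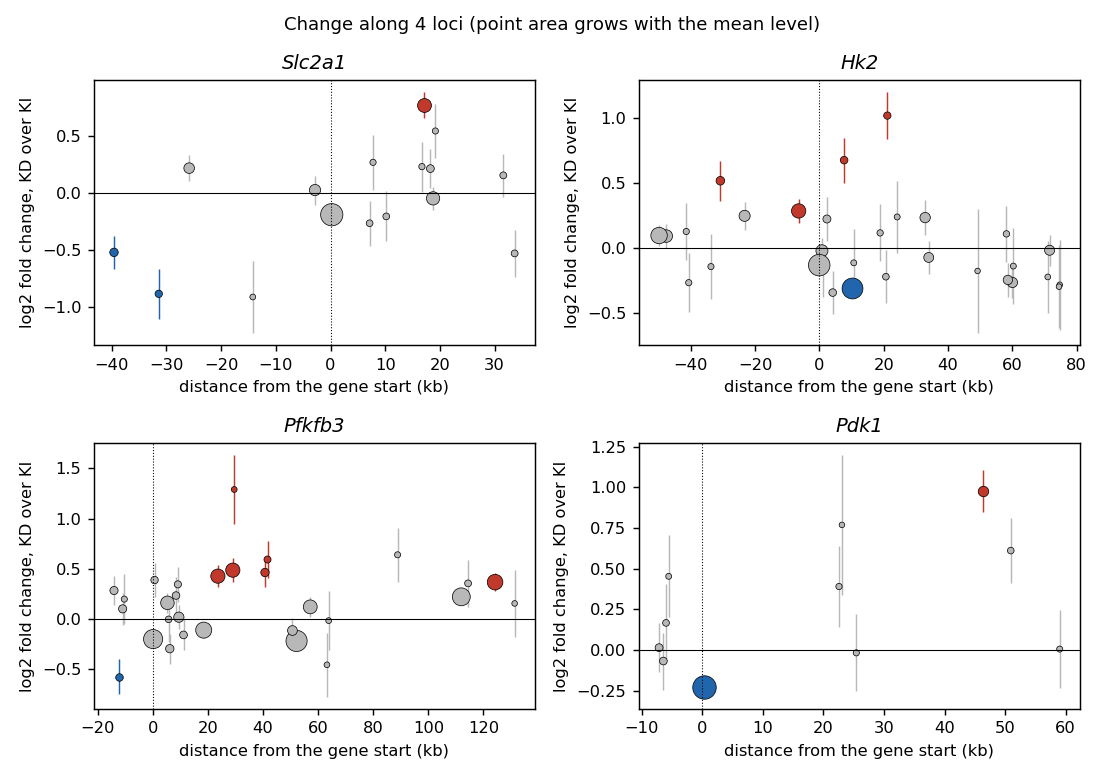
Log2 fold change of GFI1-KD over GFI1-KI with its SE (y axis) against distance of the peak's midpoint from the most upstream listed gene start (x axis, kb along the gene's strand) for the tested peaks of Slc2a1, Hk2, Pfkfb3 and Pdk1. Red is called higher, blue called lower, grey not called, and point area grows with the mean level. Higher and lower peaks stand in the same locus in all 4.

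The 9 genes of lower glycolysis, which turn fructose 1,6-bisphosphate into pyruvate and harvest ATP and NADH, had 5 peaks called higher and 0 lower of 52 tested, 9.62% against 10.5% of all tested peaks (1 lower at an unadjusted p under 0.05; 0 lower by edgeR and by DESeq2). Pgam1, the phosphoglycerate mutase, had 2 of its 5 tested peaks higher, in the body and over the end of the gene on chromosome 19. The peak in the body, from 41916791 to 41917255, held 777, 658 and 715 normalized reads in KD1 to KD3 and 669, 512 and 573 in KI1 to KI3. KI1 lay above KD2, so the genotypes overlapped, and the change was 0.30 ± 0.09 (limma adjusted p = 0.04). The site over the gene's end, from 41918578 to 41918911, rose by 0.40 ± 0.12 with a limma adjusted p of 0.0405. Both lost the call without KD1 (0.12 and 0.119), KD3 (0.113 and 0.145), KI2 (0.269 and 0.233) or KI3 (0.141 and 0.105).

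Eno1, the enolase gene, rose at a weak site 6.04 kb outside the gene on its upstream side, on chromosome 4 from 150230451 to 150230670, with 23.5, 32.1 and 25.5 normalized reads in KD1 to KD3 and 7.88, 16.7 and 8.31 in KI1 to KI3 (1.29 ± 0.32, limma adjusted p = 0.0115; 0.065 and 0.06 without KD2 and KI3). A stronger peak in its body rose by 0.30 ± 0.09 (limma adjusted p = 0.0445), lost without each library other than KI1 (0.057 to 0.27). Pkm, which makes the last, pyruvate-forming kinase, rose at a peak 2.88 kb from its start on chromosome 9, with 644, 474 and 469 in KD1 to KD3 and 498, 310.3 and 374 in KI1 to KI3. Here KI1 stood above KD2 and KD3, and the change of 0.44 ± 0.13 (limma adjusted p = 0.0403) was lost without each library other than KI1 (0.051 to 0.264), with robust variance (0.175), with a filter at a mean of 50 (0.0504) and by DESeq2 (0.273). KD1 was the highest library at the Pgam1, Eno1 body and Pkm peaks. Several of these genes have processed copies elsewhere in the genome, and how reads that fit both were placed is not given in the sources used here, so peaks over their exons are uncertain.

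Aldoa, Aldoc, Tpi1, Gapdh, Pgk1 and Eno2 held 22 further tested peaks with 0 called by limma, edgeR and DESeq2 (2 at an unadjusted p under 0.05). Aldoa, the aldolase of most tissues, had the most open start peak of any member, with 1527, 1334 and 1521 normalized reads in KD1 to KD3 and 1647, 1585 and 1615 in KI1 to KI3 (limma adjusted p = 0.119). Gapdh, the glyceraldehyde 3-phosphate dehydrogenase, held 1577, 1369.9 and 1392 in KD1 to KD3 and 1495, 1585 and 1519 in KI1 to KI3, interleaved. Tpi1, which interconverts the triose phosphates, held 439.8, 453 and 470.1 in KD1 to KD3 and 455, 478 and 436 in KI1 to KI3, also interleaved.

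At the lactate step, Ldha, the form that favours lactate, had 0 of 13 tested peaks called (limma, edgeR and DESeq2; 2 at an unadjusted p under 0.05). Its start peak held 637, 632 and 685 normalized reads in KD1 to KD3 and 743, 696 and 749 in KI1 to KI3, all lower in GFI1-KD but short of the threshold (limma adjusted p = 0.169). Ldhb, the form that favours pyruvate, had 1 of 7 called, on chromosome 6 from 142508619 to 142509066 and 662 bases before its start, with 299, 250.5 and 289 in KD1 to KD3 and 242, 209 and 195 in KI1 to KI3. The genotypes did not overlap, and the rise of 0.38 ± 0.12 (limma adjusted p = 0.0404) was lost without KD1 (0.107), KD3 (0.134), KI2 (0.151) or KI3 (0.212). It was the only strongest start peak of the 30 that was called higher.

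The pyruvate gate gave the smallest p of all members. Pdk1, a kinase that inactivates pyruvate dehydrogenase, gained accessibility 15.5 kb beyond the end of the gene, on chromosome 2 from 71919363 to 71919896, with 292, 229.6 and 296 normalized reads in KD1 to KD3 against 152, 128 and 132 in KI1 to KI3. The lowest GFI1-KD library stood well above the highest GFI1-KI library. The rise was 0.98 ± 0.13 (limma adjusted p = 6.95e-05), and the alternatives gave adjusted p values up to 0.00203. The nearest other protein-coding gene, Itga6, lay 60.9 kb away. At the same time the broad Pdk1 start peak, from 71872838 to 71874126, was lower, with 1266, 1127 and 1173 in KD1 to KD3 and 1336, 1415 and 1413 in KI1 to KI3. That change of -0.22 ± 0.06 (limma adjusted p = 0.0213) was lost without KD3 (0.0829), KI2 (0.127) or KI3 (0.131), with median-of-ratios scaling (0.0607), by edgeR (0.0599) and by DESeq2 (0.142). The summed signal of the locus did not show either move, at -0.02 ± 0.06.

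Of the other gate genes, Pdk2, Pdk3, Pdk4 and Pdha1, none had a peak called by limma or DESeq2, and edgeR called 1 at Pdk3 and 1 at Pdk4 (5 at an unadjusted p under 0.05 in limma). Pdk4, the kinase induced by fasting and fatty acids, had 1 weak peak, 13.5 kb outside the gene, with 22.5, 38.3 and 49.9 normalized reads in KD1 to KD3 and 20.3, 21.9 and 15.9 in KI1 to KI3. KD1 stood close to KI2. The change of 0.84 ± 0.27 narrowly missed the threshold over peaks (limma adjusted p = 0.0538). Pdha1, the catalytic subunit of pyruvate dehydrogenase, held 858, 791 and 860.4 at its start in KD1 to KD3 and 938, 959 and 982 in KI1 to KI3, without overlap, and also missed it (limma adjusted p = 0.0615). The Pdk2 start held 699.8, 631 and 716 in KD1 to KD3 and 813, 742 and 779 in KI1 to KI3, again without overlap but not called (limma adjusted p = 0.113).

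Hif1a, the hypoxia regulator, had 2 higher and 1 lower of 16 tested peaks. The lower one, 6.11 kb beyond the end of the gene on chromosome 12 from 73953664 to 73954077, held 83.5, 72.8 and 82.0 normalized reads in KD1 to KD3 and 116, 149 and 146 in KI1 to KI3. The genotypes were well apart, at -0.77 ± 0.15 (limma adjusted p = 0.00233), and the peak was called under every alternative. It lay 10.4 kb from Snapc1, the next gene. A peak over the upstream end of the gene body, at -6.56 kb from the listed start, held 149, 107 and 152 in KD1 to KD3 and 104, 87.6 and 89.1 in KI1 to KI3. It rose by 0.52 ± 0.16 (limma adjusted p = 0.0343), and not without KD1 (0.1), KD3 (0.152), KI2 (0.142) or KI3 (0.128). A peak 20.4 kb outside the gene on its upstream side rose by 0.45 (limma adjusted p = 0.0494), lost without each library other than KI1 (0.0582 to 0.279), with a pseudocount of 0.5 (0.0502), a replicate block (0.0518), the chromosome Y term (0.0505) and by DESeq2 (0.0545). The main start peak held 1263, 1109.5 and 1342 in KD1 to KD3 and 1350.0, 1331 and 1489.95 in KI1 to KI3 and was not called (limma adjusted p = 0.121).

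**Figure D3:**
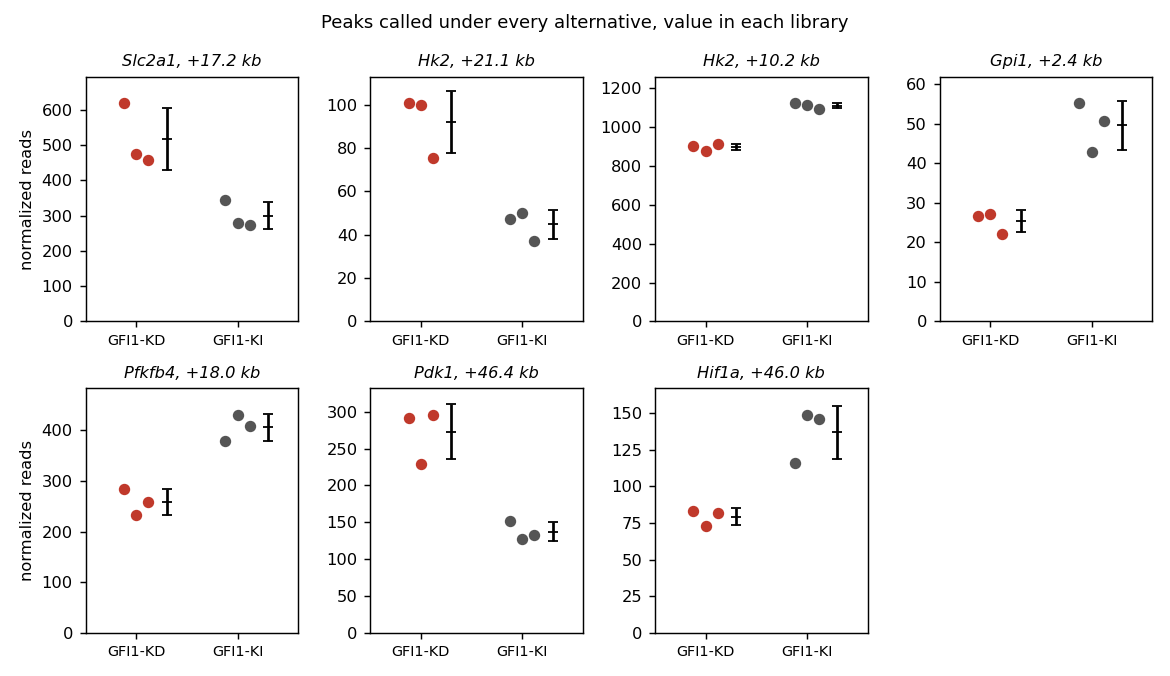
Normalized reads in each library (points; GFI1-KD left, GFI1-KI right; mean ± SD of 3 libraries beside them) for the 7 peaks called under every alternative that tested them, titled by gene and distance from the gene start. GFI1-KD libraries are all above GFI1-KI libraries at Slc2a1, Hk2 (+21.1 kb) and Pdk1, and all below at Hk2 (+10.2 kb), Gpi1, Pfkfb4 and Hif1a.

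Few members changed as whole genes. When normalized reads were summed over all peaks of a gene, 17.2% of 17735 genes were called, 3.84% higher and 13.4% lower, and the median log2 fold change was -0.08. Among the 32 members 1 was higher and 1 lower, and the median was -0.03. The direction over all genes turned with the count-based tools, to 11.7% higher and 6.75% lower by edgeR and 9.70% and 4.87% by DESeq2, and the members then had 4 higher and 0 lower by edgeR and 3 and 0 by DESeq2. The lower one was Pdha1, with 956, 896 and 955 summed reads in KD1 to KD3 and 1052, 1093 and 1084 in KI1 to KI3 (-0.20 ± 0.07, limma adjusted p = 0.0331). Its call was lost without KD2 (0.0649), KD3 (0.0598), KI2 (0.154) or KI3 (0.134), with median-of-ratios scaling (0.0639), by edgeR (0.0945) and by DESeq2 (0.214). The higher one was Pdk4, whose sum is its 1 weak peak (limma adjusted p = 0.0441; 0.159, 0.211 and 0.133 without KD2, KD3 and KI3, and 0.0623 by DESeq2). The other 30 genes lay between -0.30 (Pfkl) and 0.16 (Pgam1).

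**Figure D4:**
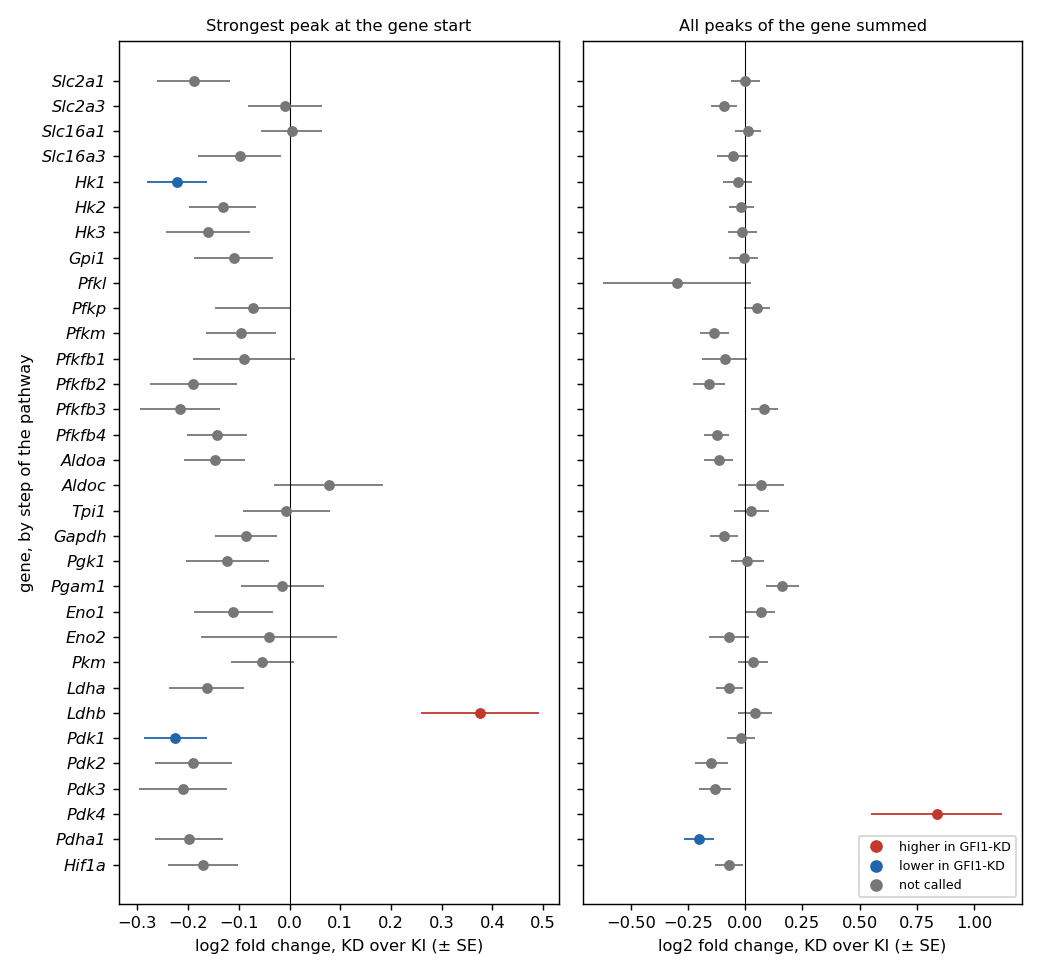
Log2 fold change of GFI1-KD over GFI1-KI with its SE (x axes) for the strongest start peak of 30 genes (left) and for the summed reads of all peaks of 32 genes (right), genes in pathway order. Left, 27 of 30 values are below 0 (23 with equal totals or median-of-ratios scaling), while Hk1, Pdk1 (blue) and Ldhb (red) are called. All tested peaks within 1 kb of a listed start had a median log2 fold change of -0.09. Right, Pdha1 (blue) and Pdk4 (red) are called.

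The X-linked members Pdk3, Pgk1, Pfkfb1 and Pdha1 had 20 tested peaks with 0 called by limma and DESeq2 and 1 by edgeR (4 at an unadjusted p under 0.05). Across all tested peaks limma called 10.5%, DESeq2 6.34% and edgeR 12.6%. The share over all X-chromosome peaks was not computed, and 20 peaks are few for such a comparison. KD1 held 0 reads on chromosome Y, which allows up to 3, and KI2 held 1, against 499 to 865 in the other libraries. KD1 and KI2 had the highest summed reads of their genotype at Pgk1 (1109.6 and 1032), Pdk3 (1031 and 1139) and Pdha1 (955.5, against 954.7 in KD3, and 1093), but at Pfkfb1 KI2 held 375, below KI3 at 406. KD1 was also the highest GFI1-KD library at autosomal members such as Pkm, Pgam1, Gapdh and Hk1. With a term for libraries lacking chromosome Y reads the members again had 23 peaks higher and 11 lower.

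A further 52 genes around the pathway were listed, among them other isoforms, the pentose phosphate branch, the mitochondrial pyruvate carrier and the oxygen-sensing hydroxylases, and 50 had peaks. Of their 411 tested peaks 26 were higher and 18 lower, 10.7% against 10.5% of all tested peaks, with a median log2 fold change of -0.03. edgeR called 37 higher and 17 lower and DESeq2 22 and 6, and the single peaks named here were not followed through the other alternatives. Higher peaks only were seen at 9 genes, lower only at 7 and both at 5. Pdp1, the phosphatase that reactivates pyruvate dehydrogenase and so opposes the PDK kinases, had 4 peaks higher and 1 lower of 10. Its leading peak, 23.3 kb outside the gene on chromosome 4, held 458, 455 and 488 normalized reads in KD1 to KD3 and 346, 252 and 264 in KI1 to KI3 (0.71 ± 0.11, limma adjusted p = 0.0003). Pdhx, a structural subunit of the complex, had 5 higher and 1 lower of 26. The lower one rested on few reads, with 7.49, 2.47 and 7.76 normalized reads in KD1 to KD3, where KD2 lay under its 3-read floor of 3.70, and 16.9, 32.4 and 31.0 in KI1 to KI3 (limma adjusted p = 0.00225). Bpgm, which diverts sugar to 2,3-bisphosphoglycerate in red cells, had 4 of 10 lower, led by -1.67 ± 0.32. Of 85 tested start peaks of these genes 2 were higher and 5 lower. The lower ones were at Mpc2, of the pyruvate carrier (-0.27), Pdhb, the partner subunit of Pdha1 (-0.19), Pgls, of the pentose phosphate branch (-0.25), Pdp1 (-0.23) and the transporter gene Slc2a12 (-0.62). The higher ones were both at the transporter gene Slc2a6 (0.51 and 0.28). The hydroxylase genes Egln1 and Egln3, whose products mark HIF-1α for decay, were led by peaks that rose by 0.58 and 0.86, and each also had 1 lower peak. Leading peaks rose at Mpc1 (0.78), Rpia (0.74), Slc2a6 (0.63), Slc16a7 (0.77), Hkdc1 (0.99), Epas1 (1.08), Pdpr (1.03), Rpe (0.47), Taldo1 (0.34) and Pgd (0.33), and were lower at Slc2a9 (-0.41) and Ldhc (-0.82), although Rpia had 3 peaks lower.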

How the data were processed

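The deposited table holds a normalized read signal for 182166 consensus peaks in 6 ATAC-seq libraries. Judging from the values, the authors multiplied the counts of a library by a single factor: 100% were whole multiples of 1 step per library (tolerance 0.01 reads). Per the submitters' processing notes, reads were handled with the tools Trim Galore, BWA, Picard and SAMtools, with MACS2 and DiffBind, and with HOMER and ChIPseeker, on build mm10. Their versions and roles, peak merging and any transposase shift: not given in the sources used here. Columns named WT were taken as GFI1-KI, the genotype that the series title calls wild type. Chromosome codes were read in alphabetical order, which put 16.0% of peaks within 1 kb of a gene end, against 2.62% for numeric order, over codes where the orders differ. Coordinates are as in the deposited table.

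Genes came from RefSeq (21887 protein-coding) and starts from its promoter table. A peak overlapping a member was counted even where it overlapped another gene. The contrast of GFI1-KD over GFI1-KI was fitted in limma 3.58.1 under R 4.3.3, with a variance trend, on log2(value + 1), Benjamini-Hochberg over all tested peaks or genes. Alternatives used edgeR 4.0.16 and DESeq2 1.42.0 on recovered reads, other scalings, pseudocounts and filters, a replicate block and leaving out each library. Named peaks were each gene's called peak with the smallest p and its strongest start peak. Other called peaks, and the per-library values chosen among start peaks, were picked with values known. The members, lists and tests were chosen with earlier results of these data known. No genome sequence was used, so distal peaks are not printed.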

Additional observations from a re-analysis of the deposited data

How the results depend on the processing

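The members had 23 higher and 11 lower peaks. These counts stayed within 1.5 times under other scalings (28 and 11 with equal totals, 28 and 8 with median-of-ratios), pseudocounts, filters, the replicate block, robust variance, edgeR (30 and 8) and the chromosome Y term, which was chosen after seeing the data. DESeq2 gave 20 and 5, an adjusted p under 0.01 gave 4 and 4, and gene bodies alone gave 16 and 6. Leaving out 1 library gave 4 to 25 higher and 4 to 14 lower. The share of called members that were higher was 67.6%, and 77.8% with median-of-ratios scaling, 78.9% with edgeR, 80% with DESeq2, and 44% and 47.1% without KD1 and KD3 (40.4% and 41.8% of all called peaks). Across all peaks 17872 were called, 10819 with DESeq2, 6896 under 0.01 and 6996 to 22129 without 1 library; the share higher was 47.7%, and 60% with median-of-ratios scaling, 58.6% with equal totals, 58.4% with edgeR and 66.8% with DESeq2. Of the members' summed reads 2 genes were called, 4 with equal totals, 4 with edgeR, 1 with a filter at a mean of 50, 0 under 0.01 and 0 to 3 without 1 library; over all genes edgeR called 2071 higher and 1197 lower, against 681 and 2368 with limma. No called member peak changed sign in any of these, while among the strongest start peaks of 30 genes the number with a negative change was 27, and 23 with equal totals, median-of-ratios scaling or DESeq2 and 24 with edgeR. The cause of these moves was not tested, apart from the 0.01 threshold, the gene-body rule and the filter, which admit fewer peaks or genes. Same-numbered libraries did not deviate together (correlations of deviations -0.024, -0.038 and 0.056), so the numbers were not taken as pairs; with the replicate block the members had 22 higher and 11 lower peaks, 18940 peaks were called in all and 3 member genes were called. Depth limits weak peaks: a count of 3 reads is 2.27 to 3.70 normalized reads.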
